A study of Mus musculus with 4 samples.

Results

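The integrins and the laminins are the receptors and the main adhesive proteins of the basement membrane, the sheet of matrix on which the cochlear epithelium stands. Members were the gene probes whose name on the array was that of an integrin alpha chain, an integrin beta chain or a laminin chain, and every probe of such a gene was kept. By this rule 37 of 29924 gene names were members, namely 18 integrin alpha chains, 8 integrin beta chains and 11 laminin chains, with 51 probes. Of these genes 33 had a probe bright enough to be tested, among 21042 tested genes in all.

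RNA of E14.5 cochlear ducts from mouse embryos on the NMRI background was compared on 4 two-colour arrays. Each array held a mutant pool and a control pool of ducts of the same sex, female on arrays 1 and 2 and male on arrays 3 and 4. Mutant RNA carried the dye Cy5 on arrays 1 and 3 and Cy3 on arrays 2 and 4. The mutant ducts, *Sox2-Tbx2LOF*, were *Sox2*(creERT2);*Tbx2*(fl/fl), and the controls are labelled *Tbx2*(fl/n.d.), with the other *Tbx2* allele not determined, whereas the methods call them cre-negative. CreERT2 is a recombinase that works only with tamoxifen and is made here from the *Sox2* locus, so *Tbx2*, which encodes a T-box transcription factor, can be deleted only in cells that express *Sox2*, among them the prosensory progenitors. By the methods the groups thus also differ in the *Sox2*(creERT2) allele, and its effect cannot be told apart from that of *Tbx2* loss. The pregnant females of both groups received 1 oral pulse of 4 mg tamoxifen at E12.5. In pooled ducts a lower level per cell and a smaller share of cells with the transcript cannot be told apart.

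An integrin is a pair of 1 alpha and 1 beta chain that spans the cell membrane, binds matrix outside the cell and is coupled to actin or keratin filaments inside it. A laminin is a cross-shaped trimer of an alpha, a beta and a gamma chain, and laminin trimers are laid down next to the cell surface as the first layer of a basement membrane. In the developing ear, this matrix surrounds the otic epithelium and separates it from the periotic mesenchyme and the growing ganglion.

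Among the 33 tested members only *Itgb6*, the beta6 chain of an epithelial integrin, passed the test, and it was higher in the mutant. By its 3′ probe the mutant pools exceeded the control pools by 0.51 ± 0.043 on the log2 scale (SD, n = 4 arrays), a 1.42-fold higher level (adjusted p = 0.000225, limma over all tested genes). The other 32 members, every tested laminin and every tested alpha chain among them, had log2 ratios between -0.16 and 0.15 and did not pass.

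The beta6 chain pairs only with the alphav chain. Integrin alphavbeta6 is found on epithelial cells, where it binds fibronectin, tenascin and the latent forms of TGF-beta1 and TGF-beta3, which it can activate. Both array probes of *Itgb6* are shown because the rise rests on the first of them. They are given 5′ to 3′ in the sense of the transcript, all in lower case.
*Itgb6* 3′ probe: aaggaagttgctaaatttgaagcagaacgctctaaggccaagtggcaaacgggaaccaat
*Itgb6* 5′ probe: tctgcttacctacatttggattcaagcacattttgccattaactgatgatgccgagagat
In the files' mm9 coordinates both probes lie on the minus strand of chromosome 2, the 3′ probe at chr2:60438632-60443247 and the 5′ probe at chr2:60492788-60492847. They match positions 2445 to 2504 and 838 to 897 of the transcript that the array names, so both are exonic. The 60 bases of the 3′ probe are spread over 4616 bases of genome and therefore cross at least 1 exon junction, whereas the 5′ probe lies within 1 exon. The probes hold 27 and 24 G or C bases of 60.

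Levels below are normalized log2 signals of 1 probe and can be compared between pools, not between probes. With the 3′ probe, the level of *Itgb6* in the control pools was 8.16 on array 1, 8.37 on array 2, 8.23 on array 3 and 8.10 on array 4. In the mutant pools it was 8.63, 8.87, 8.72 and 8.67 in the same order. The lowest mutant pool was above the highest control pool, and the means were 8.72 ± 0.109 and 8.22 ± 0.116 (SD, n = 4 pools each). The log2 ratios were 0.46, 0.50, 0.50 and 0.56, so female and male arrays, at means of 0.48 and 0.53, and both dye directions gave much the same value. The test of a difference between the sexes did not pass for *Itgb6* (unadjusted p = 0.58, limma interaction term).

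The brightness of the 3′ probe before any normalization showed the same order within each dye. In Cy5 it was 548 and 554 in the mutant pools of arrays 1 and 3, against 407 and 338 in the control pools of arrays 2 and 4, over a local background of 83.4 to 98.3. In Cy3 the mutant pools of arrays 2 and 4 measured 318 and 285, against 198 and 197 in the control pools of arrays 1 and 3. The probe was well above background in all 8 pools.

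The 5′ probe of *Itgb6* was dimmer and gave a smaller ratio. Its level was 6.87, 7.02, 6.95 and 6.77 in the control pools of arrays 1 to 4 and 6.90, 7.16, 7.04 and 7.09 in the mutant pools, so the pools overlapped. The mutant pool was the higher one on 4 of 4 arrays, at log2 ratios of 0.03, 0.14, 0.09 and 0.32, and well above background in 4 mutant and 3 control pools. When all tested probes were fitted in place of 1 probe a gene, its ratio of 0.15 ± 0.042 (SE) did not pass (adjusted p = 0.115, limma), while the 3′ probe did (adjusted p = 0.000336). The offset that was added to the signals before taking logs draws ratios of dim probes towards 0. With an offset of 10 in place of 50 the ratios of the 3′ and 5′ probes were 0.57 and 0.22, and with Agilent's processed signals, which carry no such offset, 0.67 ± 0.065 and 0.37 ± 0.339 (SD, n = 4 arrays).

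**Figure D1:**
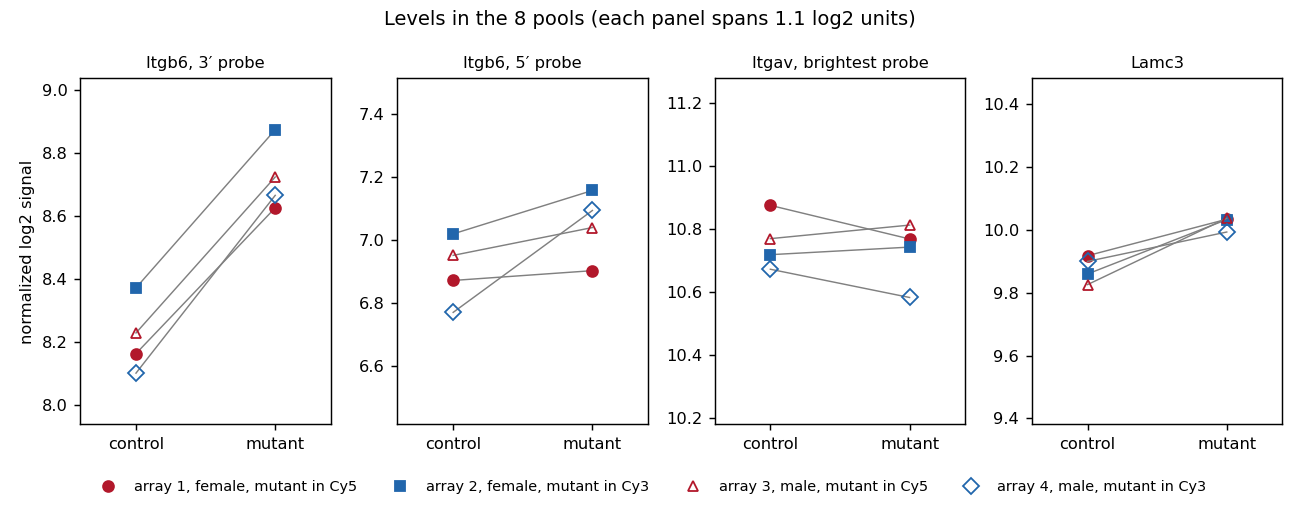
Normalized log2 signal (y axis) in the control and mutant pools of each array for both *Itgb6* probes, the brightest *Itgav* probe and *Lamc3*, with grey lines joining the pools of 1 array and every panel spanning the same log2 distance. The *Itgb6* 3′ probe lies between 8.10 and 8.37 in control and between 8.63 and 8.87 in mutant pools, *Lamc3* is separated by a smaller step, and the pools of the 5′ probe and of *Itgav* overlap.

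*Itgav*, the alphav chain and partner of beta6, did not pass. It measured 10.88, 10.72, 10.77 and 10.67 in the control pools of arrays 1 to 4 and 10.77, 10.74, 10.81 and 10.58 in the mutant pools with its brightest probe. The pools overlapped, and the log2 ratio was -0.03 ± 0.041 (SE, n = 4 arrays), with a 95% interval from -0.13 to 0.06. A second *Itgav* probe gave -0.11 and was below 0 on 4 of 4 arrays, without passing in the fit over probes (adjusted p = 0.16, limma). The other beta chains that pair with alphav were the vitronectin receptor chains *Itgb3* and *Itgb5* and the TGF-beta-activating chain *Itgb8*. Their log2 ratios were -0.04 ± 0.040 for *Itgb3*, 0.05 ± 0.037 for *Itgb5* and 0.00 ± 0.039 for *Itgb8* (SE, n = 4 arrays), and none passed.

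Across all tested genes, 476 (2.26%) passed in the upward and 615 (2.92%) in the downward direction, against 1 (3.03%) and 0 of the 33 members. At an unadjusted p below 0.05 there were 5 members (15.2%), 3 higher and 2 lower, beside 4258 of all genes (20.2%). No member passed with a fold of at least 1.5 as well, which 0.442% of all genes did. Of the members 19 had a log2 ratio above 0 and 14 below 0, with a median of 0.01 beside 0.00 for all genes. A ratio of the same sign on all 4 arrays was seen in 5 members (15.2%) and in 18.2% of all genes. The 95% interval lay within a 1.25-fold change in either direction for 32 members, that is for all but *Itgb6*. Thus changes of the size seen for *Itgb6* were outside the fitted interval of every other tested member, while smaller ones were within it. For dim members, such as *Itgb8* and *Lamb3*, this does not exclude such a change, because the added offset draws their ratios towards 0. The dim 5′ probe of *Itgb6* itself gave only 0.15 ± 0.042 (SE), against 0.51 with the 3′ probe.

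**Figure D2:**
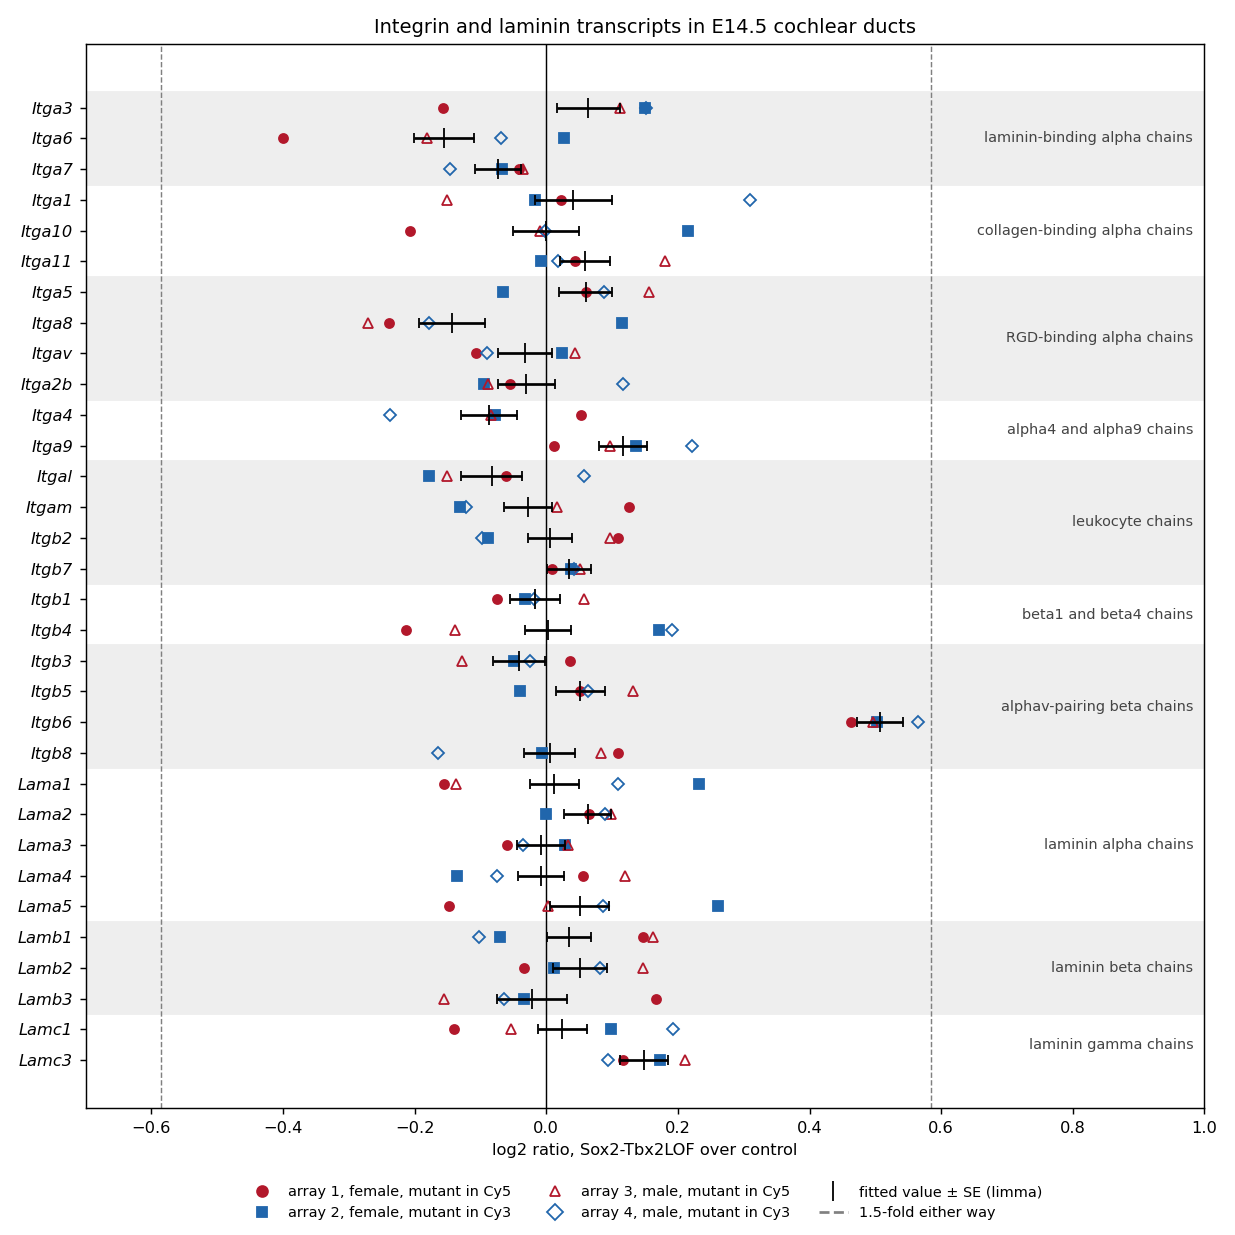
Log2 ratio of mutant over control (x axis) for 32 of the 33 tested members, grouped by role, with 1 symbol per array and the fitted value with its SE as a black bar. *Itgb6* stands at 0.51 with its 4 arrays between 0.46 and 0.56, the other fitted values lie between -0.16 and 0.15, and the arrays of *Itgb4* and *Lama1* fall on either side of 0 by dye direction.

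The laminin receptors among the alpha chains were *Itga3*, *Itga6* and *Itga7*, which pair with beta1, and alpha6 also with beta4. *Itga6* had the lowest log2 ratio of all members, -0.16 ± 0.184 (SD, n = 4 arrays; adjusted p = 0.102, limma). Its level was 15.56, 15.22, 15.38 and 15.05 in the control pools of arrays 1 to 4 and 15.16, 15.25, 15.20 and 14.98 in the mutant pools. The pools overlapped, and array 1 alone, at -0.40, stood far from 0. A second *Itga6* probe gave -0.04 ± 0.125 (SD), with 2 arrays up and 2 down. *Itga7*, the alpha chain of muscle, was below 0 on 4 of 4 arrays at -0.07 ± 0.051 (SD; adjusted p = 0.295), and *Itga3* measured 0.06 ± 0.149 (SD; adjusted p = 0.524).

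*Itgb1*, the common partner of these and most other alpha chains, had a log2 ratio of -0.02 ± 0.037 (SE, n = 4 arrays), and its second probe gave -0.03. *Itgb4*, the partner of alpha6 in the hemidesmosome, where epithelial cells fasten keratin filaments to laminin, had a fitted ratio of 0.00 ± 0.035 (SE). Its single arrays were at -0.21 and -0.14 where the mutant was in Cy5 and at 0.17 and 0.19 where it was in Cy3. The sign followed the dye there, as it did for *Lama1*, *Lamb1* and *Lamc1* among others. In 15 of the 33 members the dye term of the fit was larger than the genotype term. The share over all tested genes is not given here.

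The receptors of collagen differed little between genotypes. *Itga1*, *Itga10* and *Itga11* had log2 ratios of 0.04, 0.00 and 0.06 with SEs of 0.058, 0.050 and 0.038, and a second *Itga1* probe gave 0.10. *Itga2*, the fourth chain of this group, was well above background in none of the 8 pools and was not tested.

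The alpha chains that recognise the RGD sequence include, beside *Itgav*, the fibronectin receptor chain *Itga5*, the nephronectin receptor chain *Itga8* and the platelet chain *Itga2b*. *Itga8* was the second lowest member, at -0.14 ± 0.176 (SD, n = 4 arrays; adjusted p = 0.164, limma). It measured 14.95, 14.75, 14.96 and 14.96 in the control pools of arrays 1 to 4 and 14.71, 14.86, 14.69 and 14.78 in the mutant pools, so that array 2 ran against the other arrays. Without array 2 the log2 ratio of *Itga8* was -0.22 and passed (adjusted p = 0.0301), and it did not pass with any other array left out. *Itga5* measured 0.06 ± 0.093 and *Itga2b* -0.03 ± 0.100 (SD, n = 4 arrays).

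*Itga4* and *Itga9* encode related chains that bind VCAM1 and, in the case of alpha9, tenascin-C and osteopontin. *Itga9* was higher on 4 of 4 arrays, at log2 ratios of 0.01, 0.14, 0.10 and 0.22. Its mean of 0.12 ± 0.087 (SD) did not pass (adjusted p = 0.126, limma). *Itga4* measured -0.09 ± 0.119 (SD; adjusted p = 0.311).

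Of the chains typical of leukocytes, *Itgad*, *Itgae* and *Itgax* were well above background in none of the 8 pools and were not tested. *Itgal*, *Itgam*, *Itgb2* and *Itgb7* had log2 ratios between -0.08 and 0.03, and none passed. The value of -0.08 came from the brightest *Itgal* probe. The other tested *Itgal* probes had the opposite sign, at 0.05 and 0.07, without passing in the fit over probes (adjusted p = 0.596 and 0.471, limma). *Itgam*, the alphaM chain of macrophages and granulocytes, varied most between control pools of all members with its brightest probe, from 13.85 on array 1 to 14.69 on array 2. The mutant pools on the same arrays measured 13.97 and 14.55. The other *Itgam* probes were dim, with mean control levels of 7.38 and 7.10. They did not show this variation, at control SDs of 0.069 and 0.062 beside 0.358 for the brightest probe. *Itgb7* was above 0 on 4 of 4 arrays, but by 0.03 ± 0.019 (SD). Of 9 leukocyte markers, none passed.

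Among the laminins, *Lamc3*, which encodes the gamma3 chain, came nearest to the threshold. It measured 9.92, 9.86, 9.83 and 9.90 in the control pools of arrays 1 to 4 and 10.03, 10.03, 10.04 and 9.99 in the mutant pools. All mutant pools were above all control pools, as was so for 2 members, the other being *Itgb6*, and for 367 of all tested genes (1.74%). No member had all mutant pools below all control pools, which 2.54% of all genes did. The log2 ratios were 0.12, 0.17, 0.21 and 0.09, and their mean of 0.15 ± 0.054 (SD), a 1.11-fold difference, did not pass (adjusted p = 0.0644, limma). Female and male arrays gave 0.14 and 0.15.

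The other 10 laminin chains had log2 ratios between -0.02 and 0.06. The chains of laminin-111, the first laminin of the embryo, measured 0.01 for *Lama1*, 0.03 for *Lamb1* and 0.02 for *Lamc1*, with SEs of 0.037, 0.034 and 0.037. *Lama5*, the main alpha chain of mature epithelial basement membranes, measured 0.05 ± 0.044 (SE, n = 4 arrays). The alpha chain of muscle and nerve laminins, *Lama2*, measured 0.06, that of vessel laminins, *Lama4*, -0.01, and *Lamb2* 0.05. *Lama3* and *Lamb3*, whose chains are part of the laminin that anchors hemidesmosomes, measured -0.01 and -0.02. A second, dimmer *Lama3* probe gave -0.11 and was below 0 on 4 of 4 arrays, without passing in the fit over probes (adjusted p = 0.135, limma). As a group the laminins had a median log2 ratio of 0.02, and 8 were above 0 and 3 below.

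No member differed between the sexes in its response to genotype. The interaction term had no unadjusted p below 0.05 among the 33 members, and over all genes none passed after adjustment (0%) and 558 had an unadjusted p below 0.05. With 1 residual degree of freedom per gene beside the prior, this comparison is coarse.

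Lists of basement membrane partners, other integrin ligands, and adaptors were read from the same fit, and 56 of their 57 genes were tested. Of these, 6 were higher and 3 lower in the mutant, together 16.1%, beside 5.18% of all genes. The lists were chosen with earlier results of these data known, so the difference between these shares is not independent evidence. All 9 changes were under 1.5-fold.

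The basement membrane list, which includes nidogens, perlecan, agrin and collagen IV, had 2 of 18 tested genes higher and none lower, with a median log2 ratio of 0.08; *Col4a3* was not tested. Both were members of the Fraser complex, which fastens embryonic epithelia to the mesenchyme beneath. *Frem2* rose by a log2 ratio of 0.26 ± 0.040 (SD, n = 4 arrays; adjusted p = 0.00719, limma), with single arrays from 0.21 to 0.31. *Fras1* rose by 0.24 ± 0.171 (SD; adjusted p = 0.0361), with single arrays from 0.09 to 0.49. *Frem1*, the third protein of the complex, measured 0.06 ± 0.289 (SD) and did not pass. The core components *Nid1*, *Nid2*, *Hspg2*, *Col4a1* and *Col4a2* had log2 ratios of -0.02, 0.07, 0.09, 0.10 and 0.08, and none passed.

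Of 17 other integrin ligands and TGF-beta proteins, 2 were higher and 2 lower, with a median of 0.05. *Tgfb2*, a TGF-beta that lacks the RGD site through which alphavbeta6 binds the other forms, fell by 0.31 on the log2 scale (SD 0.135, n = 4 arrays; adjusted p = 0.00225). *Tgfb1* and *Tgfb3*, whose latent forms are ligands of alphavbeta6, measured 0.05 ± 0.245 and 0.05 ± 0.104 (SD), and neither passed. *Ltbp1*, which holds latent TGF-beta in the matrix, rose by 0.22 ± 0.098 (SD; adjusted p = 0.0166). *Postn*, encoding the matrix protein periostin, fell by 0.26 (SD 0.162; adjusted p = 0.0112), and *Egfl7*, a secreted protein of endothelial cells, rose by 0.17 ± 0.032 (SD; adjusted p = 0.0373). The ligands *Fn1*, *Tnc*, *Vtn*, *Spp1* and *Npnt* measured 0.03, 0.09, -0.07, -0.20 and -0.07 and did not pass.

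Of 21 adaptors and membrane partners, 2 were higher and 1 lower, with a median of 0.02. *Tns1*, encoding tensin-1, which binds the tails of beta chains and actin, rose by 0.24 ± 0.047 (SD, n = 4 arrays; adjusted p = 0.00921). *Cd151*, a tetraspanin that associates with the laminin-binding integrins, rose by 0.15 ± 0.064 (SD; adjusted p = 0.0429). *Dst*, whose epithelial form links alpha6beta4 to keratin filaments, fell by 0.16 (SD 0.049; adjusted p = 0.0398). The talins, kindlins, vinculin, paxillin and focal adhesion kinase, at log2 ratios between -0.03 and 0.06, did not pass. The number of list genes that passed fell with any 1 array left out. Without array 2 the lists had 4 higher and 3 lower genes, while the share of all genes that passed rose to 6.07%. Without array 1, 3 or 4 the counts over all genes fell as well, and the higher list genes numbered 2, 0 and 3. Called in either direction were then 5.36%, 1.79% and 8.93% of the list genes beside 1.95%, 2.11% and 3.30% of all genes, so that without array 3 the share on the lists was not above that of all genes. With Agilent's processed signals 2 were higher and 2 lower, 7.14% beside 2.93% of all genes.

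**Figure D3:**
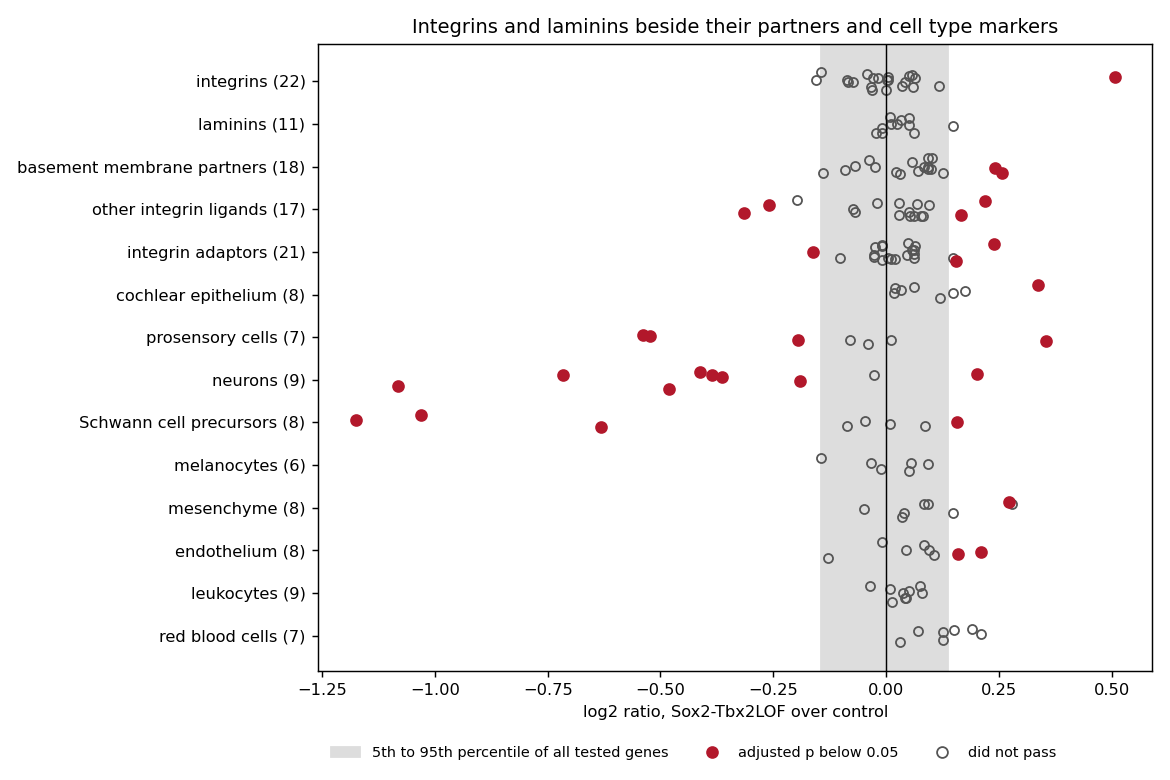
Log2 ratio of mutant over control (x axis) for each tested gene of the integrins, the laminins, the lists of partners and the cell type markers, with the number tested in brackets, red points for genes with an adjusted p below 0.05 and a grey band from the 5th to the 95th percentile of all tested genes (-0.15 to 0.14). *Itgb6* is the 1 red point among integrins and laminins, whereas neuron and Schwann cell precursor markers reach -1.08 and -1.17.

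The pools also differed in markers of cell types that a dissected duct can hold. By the methods the spiral ganglion was removed from the ducts, and whether some of it remained was not tested. Of 8 markers of cochlear epithelium only *Gata3* passed (0.34 ± 0.125, SD), and the summed level of the list was higher in the mutant by 0.05 to 0.17 on the log2 scale over the 4 arrays. The mesenchyme list was higher by 0.07 to 0.27 and had 1 of 8 genes higher (*Col1a1*, 0.27 ± 0.115), and the endothelium list was higher by 0.06 to 0.12 with 2 of 8 genes higher (*Cldn5* and *Esam*). Of 9 tested neuron markers 7 were lower and 1 higher, led by *Elavl3* (-1.08 ± 0.361), *Nefm* and *Nefl*. Of 8 Schwann cell precursor markers 3 were lower, namely *Foxd3*, *Fabp7* and *Cdh19*, while the summed levels of these lists, which their brightest genes set, differed by -0.06 to 0.06 and by -0.09 to 0.17. The paper cites *Fabp7* as a gene known from the inner part of the organ of Corti. Of 7 prosensory markers *Fgf20*, *Lfng* and *Jag1* were lower and *Hey2* higher, and the summed level was lower by 0.03 to 0.17. No melanocyte, leukocyte or red blood cell marker passed, and the summed red blood cell level differed by -0.33 to 0.62. The part of these differences in the values of *Itgb6*, *Frem2*, *Fras1*, *Egfl7* and *Postn* was not tested.

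The targeted genes served as a check of the labels. *Tbx2* had a log2 ratio of -0.12 ± 0.098 (SD, n = 4 arrays) and did not pass (adjusted p = 0.124, limma), and where its probe lies against the *loxP* sites was not examined. *Sox2*, whose locus carries CreERT2 in the mutant, measured 0.01 ± 0.181 (SD) and did not pass (adjusted p = 0.935, limma). Of 4 *Esr1* probes, 1 was well above background in 4 of 4 mutant and in 0 of 4 control pools, and CreERT2 contains part of the receptor that *Esr1* encodes. Between 69.2% and 72.0% of gene spots were well above background in each channel, and no gene spot was saturated. Mutant-over-control ratios correlated across all tested genes at r = 0.68 and 0.62 between arrays of the same dye direction and at -0.10 to 0.07 between arrays of opposite direction.

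*Itgb6* passed under each of the 15 other ways of making or testing the ratios for which a test could be had. These are not independent of the reported fit. Several keep its probe and ratio, and separate channels with the array as replicate block repeat it. The log2 ratio of *Itgb6* ran from 0.33, with the mean of both probes, to 0.67, with the deposited value table, and its highest adjusted p was 0.0186 (limma, unpaired channels). Without any 1 array it was between 0.49 and 0.52, with a highest adjusted p of 0.00998. Only the processed signals and the value table put it past a 1.5-fold change.

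**Figure D4:**
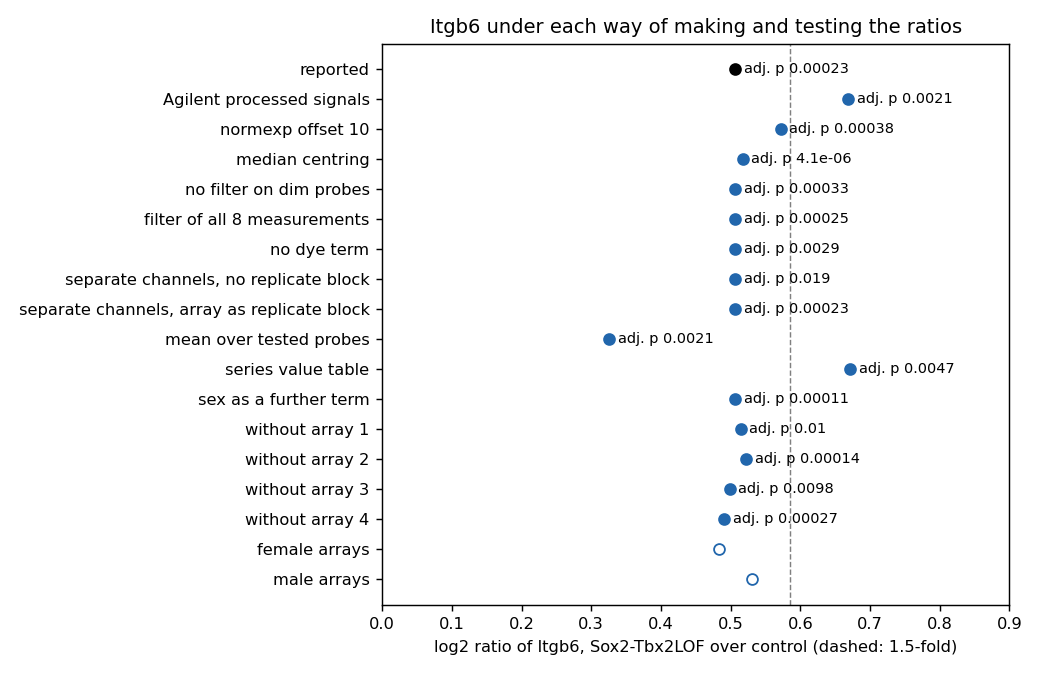
Log2 ratio of *Itgb6* (x axis) as reported and under each alternative, with limma's adjusted p beside each point, open circles for means over the arrays of 1 sex, which have no test, and a dashed line at a 1.5-fold change. All values lie between 0.33 and 0.67, and the values from the processed signals and from the deposited value table are past the line.

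Promoter windows of 300 bases around RefSeq transcript starts (GRCm38.p6) were found for 23 of the 37 member genes, 26 windows in all. The T-box site AGGTGTGA, searched on both strands, was in none of them and in 1.28% of all 32851 windows. Its shorter core GGTGTG, which overlaps that site, was in 3 member windows, those of *Itga4*, *Itgav* and *Itgb7*, and in 19.0% of all windows. Neither was in the windows of *Itgb6*, which says only that these letters are not in them.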

How the data were processed

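The authors deposited Agilent Feature Extraction output (version 10.7.3.1 in the submitters' processing notes) with unnormalized intensity values of each spot and its background in Cy3 and Cy5, the intensity after Agilent's own processing, and a log10 ratio of the latter, which was not used. They also deposited a value table, used here as a score: it matches a fold change, mutant against control, written with a sign, and its normalization is not given in the sources used here (r = 0.882 to 0.913 with the log ratios used here; median 1 in each column). Spots were corrected with limma 3.58.1 (normexp, offset 50) in R 4.3.3 and normalized by loess within arrays, with control and flagged spots at weight 0. Unflagged spots were averaged per probe. A probe well above background in at least 50% of its spots in 4 of 8 channel measurements was tested, and the brightest tested probe stood for a gene. Levels came from loess and Aquantile. Log2 ratios were fitted with genotype direction and a dye intercept (lmFit, eBayes; 2 residual and 5.65 prior degrees of freedom), with Benjamini-Hochberg adjustment over 21042 genes and a threshold of 0.05. The fit was tested on simulated data. Pools are paired by array, all on 1 slide. With the dye intercept in the fit, p values and SEs rest on the spread between arrays of the same dye direction, moderated by the prior. The SDs of log2 ratios over 4 arrays also hold the difference between dye directions, which those p values and SEs leave out. The number of arrays, 4, limits the precision. Members are named except 1, which like 1 marker gene is not reported here by name; a member that passed is given in all pools and probes. Members and lists were chosen with earlier results of these data known.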

Additional observations from a re-analysis of the deposited data

Results flagged for a closer look

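In 4 of 99 groups of 4 values of tested members (ratios, control levels and mutant levels), 1 value stood further from the others than Dixon's 95% critical value allows. Chance alone flags about 1 in 20 such groups. The log2 ratio of *Itga3* was -0.16 on array 1 and positive on the other arrays. The control level of *Itga5* was 10.14 on array 3, where the other control pools lay within a still narrower range. The control level of *Itga8* was 14.75 on array 2, below the others, which is the array without which *Itga8* passed. The mutant level of *Lamc3* was 9.99 on array 4, the lowest mutant pool and still above every control pool.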

How the results depend on the processing

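The count of members that passed was 1 higher and 0 lower under each alternative, except that 1 was lower without array 2; leaving out arrays gave 0 to 1 lower members, and the lower one was *Itga8* (-0.22, adjusted p = 0.0301, limma). The partners, ligands and adaptors that passed, 6 higher and 3 lower, numbered 2 higher with Agilent's processed signals, 3 higher with median centring, 1 higher and 0 lower without the dye term, 0 higher and 1 lower with separate channels and no replicate block, and 1 higher and 1 lower with the deposited value table. Leaving out 1 array at a time gave 0 to 4 higher and 1 to 3 lower. With separate channels and the array as replicate block they were 6 and 3, as in the reported fit, which is itself paired by array. The cause of these shifts was not tested; leaving out an array leaves fewer samples. No member passed the test between sexes under any setting it was run for; it was not run with separate channels, with sex as a further term or without an array. Of 495 alternative results of single members, 494 kept their side of the threshold, and in 37 a member that passed in neither fit changed sign. Of the *Itgb6* probes, the 5′ probe was near background, and it was well above it in 3 of 4 control pools.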
